A study of Mus musculus with 16 samples.

Results

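The genes described here encode the contractile and thin-filament proteins: myosin heavy and light chains, myosin light chain kinases, troponins, tropomyosins, alpha-actinins, and the myomesins, myosin-binding proteins, myozenins, tropomodulins and leiomodins of the sarcomere. They were picked by a pattern of gene symbols that uses no measured value, and 32 of the 36829 listed features carry such a symbol. Cortical bone was taken from female C57Bl/6 mice that were 11 weeks old when assigned to the groups. Of these, 8 underwent hindlimb unloading (HLU) for 7 days and 8 were controls that bore weight normally. Every mouse had a separate library. HLU suspends a mouse by its tail, which takes the weight off the hind limbs. All mice were of the same strain, sex and age, with no transgene or drug given in the labels. The bone ends had been cut off and the marrow flushed out with saline, and soft tissue around the bone is said to have been removed, while no measure of muscle left on the bone is described.

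In striated muscle, myosin heavy chains pull on actin filaments, and calcium starts the pull by binding troponin C, which shifts troponin I, troponin T and tropomyosin on the filament. Slow and fast fibres use different genes for most of these proteins, and unloaded slow muscles are known to lose mass and to move toward fast isoforms. Other cells, bone cells and blood cells included, use nonmuscle myosin II, short tropomyosins and alpha-actinins in their cytoskeleton, and in the smooth muscle of vessels the myosin is switched on by a light chain kinase. Bone shafts carry muscle attachments, vessels, periosteum and marrow remnants, so a bulk sample of cortical bone can hold RNA of all these kinds. In such a sample, fewer cells of a type and less RNA per cell cannot be told apart.

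The 250 bases before the start of the 4 most variable genes of slow fibres, and of 1 smooth muscle gene for contrast, are shown because the slow fibre genes moved together across mice. They are RefSeq sequences on GRCm38.p6, at the first start listed for each gene, and 30 of the 32 genes had an entry. For the slow fibre genes, capitals mark 4 motifs searched on either strand. The first is the E-box, spelled CANNTG. The next is the M-CAT element, spelled CATTCC. The others are the core promoter motif spelled TATAAA and the MEF2 element. For Myl9, capitals mark the CArG box. No capital run overlaps another.
Tnnc1 (chr14:31208062-31208311, plus strand): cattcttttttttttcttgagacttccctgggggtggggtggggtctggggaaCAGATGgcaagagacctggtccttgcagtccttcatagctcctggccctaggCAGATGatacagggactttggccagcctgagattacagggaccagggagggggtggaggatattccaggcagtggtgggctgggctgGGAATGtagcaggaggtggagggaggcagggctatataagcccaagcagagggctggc
Tnnt1 (chr7:4515976-4516225, minus strand): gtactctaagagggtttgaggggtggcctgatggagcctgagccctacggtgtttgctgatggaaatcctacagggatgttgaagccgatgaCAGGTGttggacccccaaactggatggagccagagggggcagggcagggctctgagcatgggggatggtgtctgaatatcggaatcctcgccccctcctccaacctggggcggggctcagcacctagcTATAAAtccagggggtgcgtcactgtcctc
Tnni1 (chr1:135799171-135799420, plus strand): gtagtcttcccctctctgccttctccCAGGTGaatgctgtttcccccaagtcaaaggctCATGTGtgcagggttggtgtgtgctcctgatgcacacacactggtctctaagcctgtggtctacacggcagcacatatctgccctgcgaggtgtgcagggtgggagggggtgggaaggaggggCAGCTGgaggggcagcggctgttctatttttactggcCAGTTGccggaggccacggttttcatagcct
Myh7 (chr14:54994627-54994876, minus strand): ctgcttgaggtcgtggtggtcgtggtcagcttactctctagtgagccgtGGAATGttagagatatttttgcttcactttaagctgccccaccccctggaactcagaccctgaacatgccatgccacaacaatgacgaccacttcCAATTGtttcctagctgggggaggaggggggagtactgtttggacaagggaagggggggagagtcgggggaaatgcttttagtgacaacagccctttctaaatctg
Myl9 (chr2:156775214-156775463, plus strand): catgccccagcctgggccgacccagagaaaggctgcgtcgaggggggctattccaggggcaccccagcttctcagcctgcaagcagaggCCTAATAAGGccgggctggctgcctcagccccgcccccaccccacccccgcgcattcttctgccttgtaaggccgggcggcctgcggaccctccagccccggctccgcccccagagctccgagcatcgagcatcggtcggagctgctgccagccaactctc

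E-boxes are the sites that myogenic factors such as MyoD can bind. All 7 windows of the slow fibre genes Tnnc1, Tnnt1, Tnni1, Myh7 and Myom3 held an E-box, against 66.2% of 32851 promoters, and Tnni1 and Myh7 each contributed 2 overlapping windows. An E-box was also in 10 of 13 windows of nonmuscle genes and in 29 of the 39 windows of all members. The M-CAT element was found in 2 of the 7 (Tnnc1 and Myh7) and in 2 of 3 windows of the smooth muscle genes, against 12.6% of all promoters. TATAAA was found in 1 of the 7 (Tnnt1), against 12.4%. The MEF2 element was found in Myom3 only among the 7 and in 2.92% of all promoters. The CArG box, the site of serum response factor, was found in none of the 7, in 1 of 3 windows of the smooth muscle genes (Myl9) and in 1.47% of all promoters. Of the 39 windows of all members 3 held it, those of Myl9, Myl6 and Myl7. A match of letters is a description of these windows and not evidence of binding.

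Abundance was deposited by the authors as RPKM, the reads of a gene scaled by its length and by the size of the library. The reads by which each library had been scaled ranged from 7067512 to 21363584, and Control 2 and HLU 5 were the smallest libraries. For a gene of 1 kb, 3 reads correspond to between 0.14 and 0.424 RPKM. The bone markers Bglap, Col1a1, Dmp1 and Sost were all present, with a sum of 254 to 844 RPKM in control and 339 to 978 RPKM in HLU mice. Blood markers were abundant too. The erythroid genes Alas2 and Slc4a1 summed to 570 to 1160 RPKM in control and 285 to 994 RPKM in HLU mice, and the granulocyte genes Ngp and Camp to 3968 to 7190 and 2716 to 10577 RPKM.

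The 32 genes fell into lists by the tissue in which each isoform is best known. The nonmuscle list had 12 genes, the cardiac or atrial list 9, the skeletal list 6 and the smooth muscle list 4, and Tpm3 is used by muscle and nonmuscle cells alike. All 5 kept genes of the skeletal list were also on the slow fibre list, where Myom3 is the least specific, since intermediate fibres make it too. Of 9 slow fibre genes sought, 5 had a row, and of 12 fast fibre genes, among them Myh1, Myh2 and Myh4, 0 had a row under their symbol, so fast isoforms were not analysed here. Of the 32 genes, 26 averaged 0.5 RPKM or more across the 16 mice and entered the comparison. The other 6 were Mybpc3, Myh14, Myh6, Myh7b, Myh15 and Myl7. Myl7, the atrial regulatory light chain, had no reads in any library, and Myh6, the main heavy chain of the mouse heart, reached at most 0.125 RPKM in control and 0.573 RPKM in HLU mice. Myh6 is a near copy of Myh7, so a few reads of it may have been assigned either way.

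Among the 32 genes with a row, the nonmuscle transcripts were the most abundant per unit of length. Their sum was 555 to 731 RPKM in control mice and 411 to 812 RPKM in HLU mice, which is 62.1 to 90.5% and 50.5 to 88.1% of the summed RPKM of all 32 genes. Slow fibre transcripts took 1.09 to 27.0% in control mice (median 13.4%) and 0.996 to 35.3% in HLU mice (median 9.9%). The nonmuscle sum differed 1.98-fold between the highest and the lowest of the 16 mice and the slow fibre sum 42.1-fold. Of 32 skeletal isoforms sought 6 had a row, against 12 of 12 nonmuscle ones. Genes without a row are missing from these sums and shares.

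**Figure D1:**
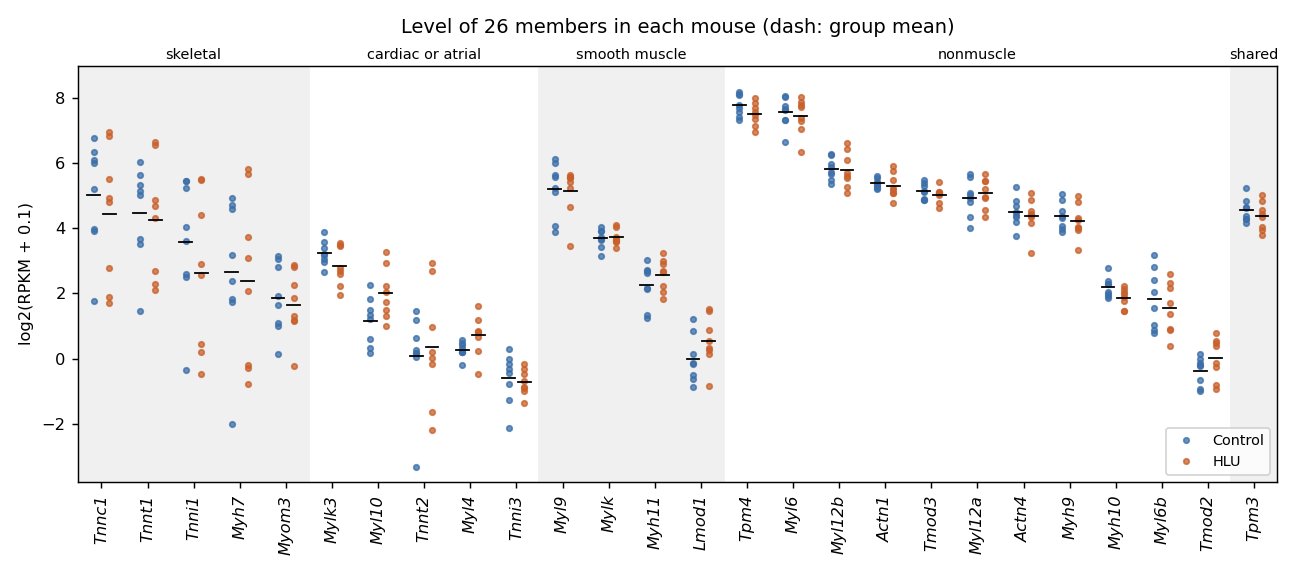
Level of each of the 26 kept genes in every mouse, as log2(RPKM + 0.1), grouped by isoform list, with controls in blue, HLU in orange and a dash at each group mean. The skeletal genes at the left spread over several log2 units in each group, whereas Tpm4, Actn1 and Tmod3 stay within narrow bands, and the groups overlap in every column.

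No member changed with unloading at an adjusted p under 0.1 and 1.2-fold (limma, Benjamini-Hochberg over 16973 features), where the share of all features called was 0%. The lowest adjusted p among the 26 was 0.744. At an unadjusted p under 0.05 with the same fold, 1 member was higher in HLU, Myl10, where 1.11% of all features were called in that direction, and 0 were lower, against 4.76%. In that test 1049 of all features had an unadjusted p under 0.05. The median log2 difference, HLU minus control, was -0.12 over the 26 members and -0.10 over all features, 67.9% of which had a negative difference. Under median-of-ratios rescaling the median of all features was -0.01, and the share of unadjusted calls that were higher went from 18.9% to 49.1%. The p-values cover the spread between these mice.

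Troponins of the slow fibre came first in abundance among the skeletal isoforms with a row. Tnnc1, the calcium-binding troponin C of slow and cardiac muscle, ranged from 3.34 to 109 RPKM in control mice (median 50.6) and from 3.15 to 124 RPKM in HLU mice (median 29.2). The lowest mice were HLU 2, Control 1 and HLU 8 and the highest HLU 7, HLU 6 and Control 6, so each group held mice at both ends. The log2 difference was -0.58 (SE 0.86, limma adjusted p = 0.867, exact permutation p = 0.54), with a 95% interval from -2.40 to 1.24 on the log2 scale, which covers differences beyond 2-fold in either direction.

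Tnnt1, the slow troponin T that ties the complex to tropomyosin, was at 2.63 to 65.9 RPKM in control mice (median 33.8) and at 4.17 to 101 RPKM in HLU mice (median 22.7). Tnni1, the slow inhibitory subunit, was at 0.689 to 43.8 RPKM (median 14.3) and 0.62 to 45.4 RPKM (median 6.56). For each of these genes the lowest 3 mice were again Control 1, HLU 2 and HLU 8 and the highest 3 HLU 7, HLU 6 and Control 6. The log2 difference was -0.20 for Tnnt1 (SE 0.76, limma adjusted p = 0.948) and -0.94 for Tnni1 (SE 1.00, limma adjusted p = 0.807), each smaller than its standard error.

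Myh7, the heavy chain of slow fibres and of the developing ventricle, ranged from 0.148 to 30.2 RPKM in control mice (median 7.09) and from 0.48 to 56.7 RPKM in HLU mice (median 6.23), with 28 to 11669 reads per mouse. The HLU mice HLU 6 and HLU 7, lay above every control and the rest lay among them. Its log2 difference was -0.28 (SE 1.13, limma adjusted p = 0.954). Exons of Myh7 overlap those of the antisense gene Mhrt on the opposite strand, and whether the authors' counting used strand is not given in the sources used here. Myom3, a myomesin that crosslinks myosin filaments at the M-band, was at 0.992 to 8.82 RPKM and 0.761 to 7.23 RPKM, and its log2 difference was -0.19 (SE 0.49).

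The 5 skeletal genes all had negative differences, as had 67.9% of all features, with a median of -0.28, and none passed the test. That median was -0.51 without the 2 smallest libraries, -0.17 under quantile normalization and -0.18 with the marrow covariates described at the end. The ranges of the groups overlapped for each of the 5, and of these Tnnc1, Tnnt1, Tnni1 and Myom3 have no overlapping exons. The share of all features with separate groups is not given here.

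Cardiac or atrial isoforms other than Mylk3 averaged at most 3.44 RPKM over the 16 mice (Myl10). Mylk3, the light chain kinase of heart muscle, was the most abundant of the list, at 6.17 to 14.7 RPKM in control mice (median 9.06) and 3.75 to 11.5 RPKM in HLU mice (median 6.58). In all, 3 HLU mice were below every control, and the log2 difference was -0.40 (SE 0.24, limma adjusted p = 0.747). Tnnt2, the cardiac troponin T that is also made in developing skeletal muscle, was at 0 to 2.65 RPKM and 0.119 to 7.49 RPKM. The value of 0 was that of Control 1, where 3 reads would have given 0.138 RPKM. HLU 6 and HLU 7, highest for the slow isoforms, were also highest for Tnnt2, and its log2 difference was 0.28 (SE 0.76).

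Myl10, a regulatory light chain placed with this list although it is not best known from the heart, was at 1.03 to 4.67 RPKM in control mice (median 2.33) and at 1.92 to 9.53 RPKM in HLU mice (median 3.66). The highest HLU mice, HLU 7 and HLU 3, lay above every control, and the other 6 lay within the control range. The log2 difference was 0.86 (SE 0.35, limma unadjusted p = 0.027, adjusted p = 0.744, exact permutation p = 0.0424), from 6 to 137 reads per mouse. Without the 2 smallest libraries its log2 difference was 0.76 and missed the unadjusted threshold (limma unadjusted p = 0.062). Myl4, the atrial essential light chain, was at 0.775 to 1.38 RPKM in control mice (median 1.10) and 0.615 to 2.94 RPKM in HLU mice (median 1.65). In all, 6 HLU mice lay above every control and HLU 4 lay below every control. Its log2 difference was 0.44 (SE 0.24, limma adjusted p = 0.744, exact permutation p = 0.0864). Tnni3, the cardiac inhibitory troponin, stayed at 0.126 to 1.12 RPKM, and its exons overlap those of Dnaaf3.

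Smooth muscle isoforms had a summed level of 28.5 to 94.6 RPKM in control and 28.9 to 75.4 RPKM in HLU mice. Myl9, the regulatory light chain of smooth muscle, was at 14.8 to 69.5 RPKM in control mice (median 43) and 10.8 to 50 RPKM in HLU mice (median 44.8). Of the HLU mice, 7 lay within the control range and HLU 4 below it. Mylk, the kinase that phosphorylates that light chain, was at 8.86 to 16.4 RPKM (median 12.9) and 10.5 to 17.2 RPKM (median 12.5), a difference of 1.94-fold between the extreme mice. Myh11, the smooth muscle heavy chain, was at 2.25 to 7.99 RPKM (median 5.28) and 3.48 to 9.42 RPKM (median 6.3), and Lmod1, which nucleates actin filaments in smooth muscle, at 0.445 to 2.23 RPKM (median 0.794) and 0.454 to 2.8 RPKM (median 1.25). The groups overlapped for each. The log2 differences were -0.07 for Myl9 (SE 0.37), 0.04 for Mylk (SE 0.14), 0.33 for Myh11 (SE 0.27) and 0.55 for Lmod1 (SE 0.36), with limma adjusted p-values of at least 0.75. The sign for Myl9 was positive under median-of-ratios and quantile scaling.

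Nonmuscle isoforms carried most of the summed RPKM of the 32 genes with a row. Tpm4, a short tropomyosin of the cytoskeleton and of platelets, was at 160 to 292 RPKM in control mice (median 217) and 125 to 258 RPKM in HLU mice (median 184). HLU 7 and HLU 6, highest for the slow isoforms, were the lowest for Tpm4. The log2 difference was -0.27 (SE 0.17, limma adjusted p = 0.748, exact permutation p = 0.139).

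Light chains followed. Myl6, the essential light chain of nonmuscle and smooth muscle myosin, was at 101 to 266 RPKM in control mice (median 202) and 80.5 to 265 RPKM in HLU mice (median 189). Myl12b, a regulatory light chain, was at 41.1 to 78.1 RPKM (median 55.9) and 34 to 98.2 RPKM (median 50). Its neighbour and close paralog Myl12a, between which and Myl12b reads may have been split, was at 16.1 to 50.8 RPKM and 20.5 to 51.2 RPKM. Exons of Myl12a overlap those of a further gene model that GENCODE also names Myl12b, and those of the muscle gene Myom1 on the opposite strand. The ranges of the groups overlapped for all 3, and the log2 differences were -0.12 (SE 0.24), -0.04 (SE 0.21) and 0.14 (SE 0.24). Those of Myl6 and Myl12b were positive under quantile normalization, and that of Myl12b also under median-of-ratios rescaling.

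Heavy chains of nonmuscle myosin II were led by Myh9, at 14.7 to 33.4 RPKM in control and 10 to 31.6 RPKM in HLU mice. Myh10, another nonmuscle heavy chain, was at 3.52 to 6.73 RPKM in control mice (median 4.37) and 2.64 to 4.64 RPKM in HLU mice (median 3.75). In all, 3 HLU mice lay below every control and none lay above. Its log2 difference of -0.32 (SE 0.15, limma unadjusted p = 0.0527, adjusted p = 0.744, exact permutation p = 0.0503) missed the unadjusted threshold. Its r with the erythroid score described later was 0.76, and its difference was -0.09 with marrow scores as covariates (limma unadjusted p = 0.368). Myh9 transcripts exceeded those of Myh10 by 3.89 to 6.13-fold in control and 3.79 to 7.29-fold in HLU mice on the RPKM scale.

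The actin-binding members follow. Actn1, a nonmuscle alpha-actinin, was at 37.1 to 48.4 RPKM in control mice (median 41.3) and 27.5 to 59.7 RPKM in HLU mice (median 36.7). Of the HLU mice, 4 lay below every control and 2 above, so the HLU range was the wider, and the log2 difference was -0.07 (SE 0.14, limma adjusted p = 0.903), which became positive under median-of-ratios and quantile scaling. Tmod3, the tropomodulin that caps actin filaments in most cells, varied least among the members, 1.81-fold over the 16 mice. Tpm3, whose gene gives slow muscle as well as cytoskeletal tropomyosin, was at 17.9 to 37.6 RPKM in control and 13.9 to 32.8 RPKM in HLU mice, with a log2 difference of -0.18 (SE 0.19). Actn4, Myl6b and Tmod2 had no call either. Exons of Tpm4, Actn1, Actn4 and Mylk overlap those of other genes on the opposite strand, so part of their reads may belong to those. The 11 kept nonmuscle genes had a median log2 difference of -0.11, 9 negative and 2 positive, near the -0.10 of all features, and that median was 0.03 under quantile normalization.

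**Figure D2:**
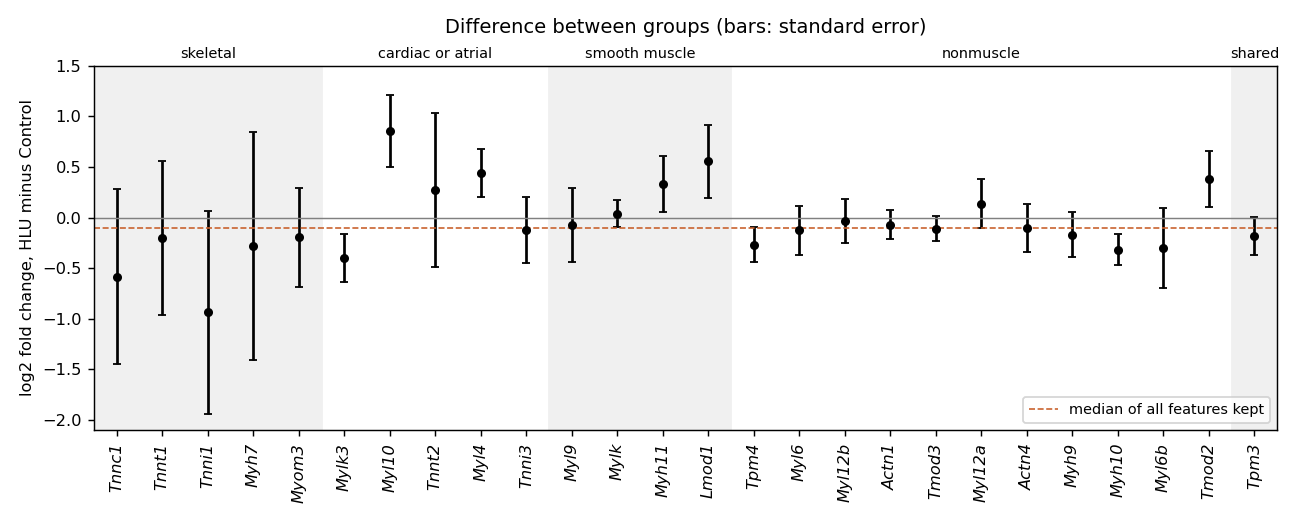
Log2 fold change, HLU minus control, of the 26 kept genes in log2 units, with bars of 1 standard error and a dashed line at the median of all features. The bars of the skeletal genes (0.49 to 1.13) and of Tnnt2 (0.76) are wide and reach past 0, while Myl10 at 0.86 is the only gene past the unadjusted threshold.

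The spread between mice set the slow fibre genes apart in size from the other lists. The SD of log2(RPKM + 0.1) within groups had a median of 1.89 over the 5 skeletal genes (1.06 to 2.48), of 0.67 over the smooth muscle genes, of 0.47 over the nonmuscle genes and of 0.43 over all features. It was over 1 in 5 of 5 skeletal genes and in Tnnt2, while 10.5% of all features kept, and 3.85% of the 7864 features that averaged 5 RPKM or more, were over 1. From the lowest to the highest mouse Myh7 spanned 384-fold, Tnni1 73.2-fold, Tnnc1 39.3-fold, Tnnt1 38.5-fold and Myom3 11.6-fold. Tpm4 spanned 2.33-fold and Actn1 2.17-fold.

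**Figure D3:**
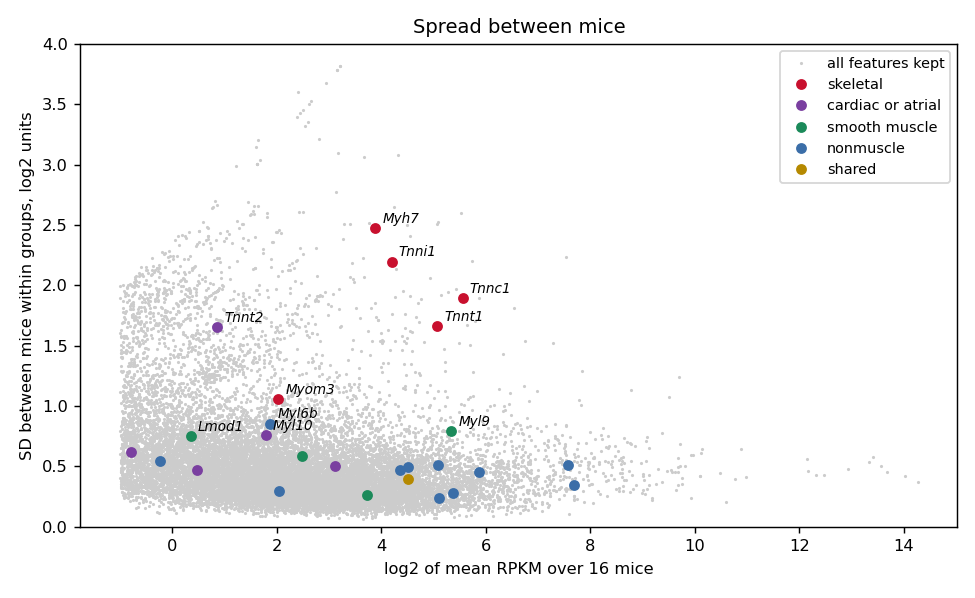
SD between mice within groups (log2 units) against log2 of the mean RPKM, for all kept features in grey and the members coloured by list. Myh7, Tnni1, Tnnc1 and Tnnt1 stand at 1.66 to 2.48, far above most features of like abundance, and the nonmuscle genes lie at 0.24 to 0.85.

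The slow fibre genes were high and low in the same mice. After subtraction of group means, Pearson's r with Tnnc1 over the 16 mice was 0.99 for Tnnt1, 0.98 for Tnni1, 0.98 for Myh7, 0.91 for Tnnt2 and 0.81 for Myom3, with Spearman's rho of 0.98, 0.98, 0.97, 0.90 and 0.80. Without the 2 mice farthest from the median these were 0.99, 0.97, 0.96, 0.85 and 0.68. Values of 1 mouse share a library and its scaling, and no test was made of these relations. Outside the striated lists, Myl6b, an essential light chain that slow muscle also uses, had an r of 0.82, as high as that of Myom3, and Tpm3 had 0.73. The r was 0.50 for Myh11, 0.18 for Myl9, -0.00 for Myh9, -0.49 for Tpm4 and -0.63 for Tmod3.

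The ratios between the troponin transcripts, on the RPKM scale, varied less than their levels. The ratio of Tnnt1 to Tnnc1 was 0.552 to 0.872 in control and 0.638 to 1.32 in HLU mice, and that of Tnni1 to Tnnc1 0.207 to 0.637 and 0.185 to 0.465. The Myh7 to Tnnc1 ratio spanned more, 0.0442 to 0.351 and 0.105 to 0.492, and was lowest in Control 1, where Myh7 had 0.148 RPKM.

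**Figure D4:**
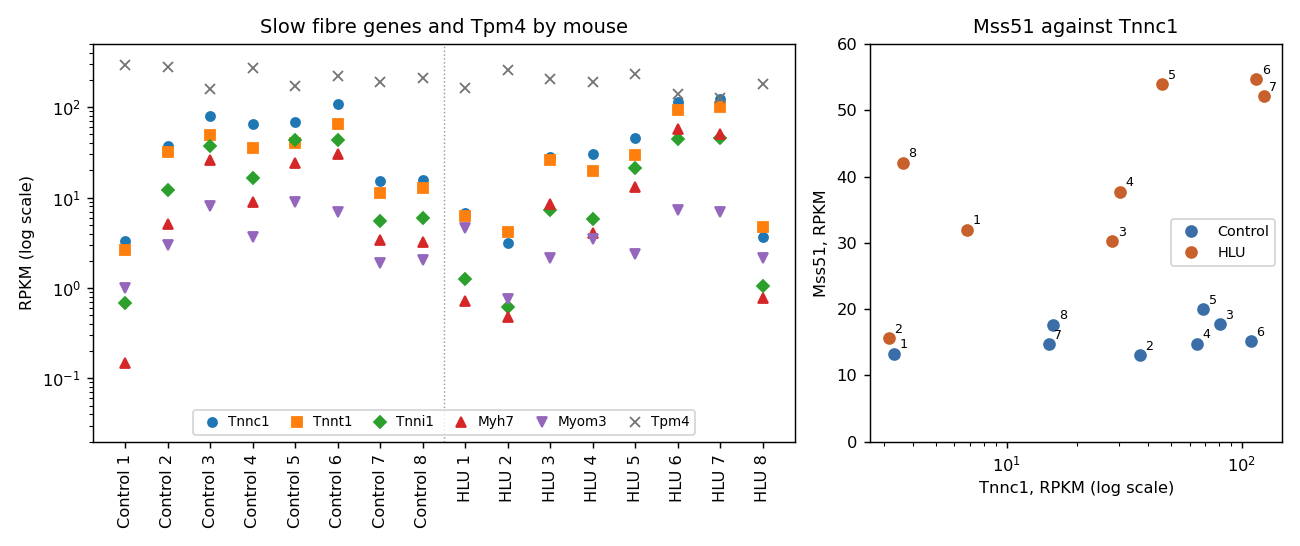
Left, RPKM (log scale) of 5 slow fibre genes and of Tpm4 in each mouse; right, RPKM of Mss51 against RPKM of Tnnc1 (log scale), with mice numbered and coloured by group. Tnnc1, Tnnt1 and Tnni1 are lowest in Control 1, HLU 2 and HLU 8 while Tpm4 stays within 125 to 292 RPKM, and Mss51 is above 30 RPKM in 7 HLU mice, whose Tnnc1 runs from 3.63 to 124 RPKM.

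Some muscle genes outside the rule varied with the slow fibre genes. The skeletal muscle markers Acta1, Ckm, Mb, Mylpf, Ttn and Neb had no row under their symbols and were not analysed here. Of 29 other skeletal muscle genes, 4 had a row and were kept, Casq2, Klhl41, Myod1 and Myog, and their sum was 36.6 to 160 RPKM in control and 31.2 to 208 RPKM in HLU mice. None of the 4 was at 0 in a mouse. Casq2, a calcium store protein of slow and cardiac muscle, had an r of 0.84 with Tnnc1 and Klhl41, a sarcomere assembly protein, 0.75. Without the 2 farthest mice these were 0.74 and 0.60. The myogenic factors Myog and Myod1 had 0.65 and 0.37, which were 0.43 and 0.16 without the 2 farthest mice. Tnmd, a tendon gene, had 0.73 and Thbs4, sought with the tendon and periosteum genes, 0.72. Without the 2 farthest mice these were 0.62 and 0.51. Col1a1, the main bone collagen, had 0.05. The granulocyte gene Ngp had -0.59, which was -0.41 without the 2 farthest mice. Whether attached muscle sets the slow fibre levels was not tested.

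The members differed in the marker score with which their r was highest. A score is the mean centred log2 level of a short marker list, and r was taken over 16 mice with group means subtracted. In all, 8 members had their highest r with the skeletal muscle genes, 8 with the smooth muscle genes Acta2 and Tagln, 7 with the granulocyte genes, 2 (Mylk3 and Myh10) with the erythroid genes and 1, Myl10, with the bone genes. Some of these were weak or nearly tied: the highest r was 0.26 for Tpm3, 0.35 for Tmod3 and 0.39 for Tpm4. Negative relations do not enter this sorting, and some were larger in size. Tpm4 and Tmod3 had an r of -0.78 and -0.83 with the smooth muscle score, and Tmod2 -0.85 with the granulocyte score. Actn1 had 0.80 with the granulocyte and 0.80 with the erythroid score, and Tnnt2 0.77 with the smooth muscle and 0.76 with the skeletal score. Mylk had 0.697 with the smooth muscle and 0.695 with the bone score. Myh9 had 0.69 with the granulocyte and 0.68 with the erythroid score, and Lmod1 0.86 with the smooth muscle and 0.84 with the skeletal score. The r of Myl10 was 0.58 with the bone and 0.55 with the smooth muscle score. Without the 2 farthest mice, chosen for each score separately, these were 0.40 and 0.70. Myom3 had an r of 0.93 with the skeletal score and Tnnc1 0.76. Myh11 had an r of 0.90 with the smooth muscle score, Myl12a 0.87 and Lmod1 0.86. Myl12b had 0.91 with the granulocyte score and -0.15 with the smooth muscle score, and the ratio of Myl12b to Myl12a ran from 0.879 to 3.68 across mice. Mylk3, the kinase named for the heart, had an r of 0.92 with the erythroid score (rho 0.96) and of -0.76 with the skeletal score. The part of marrow cells in the levels of Mylk3, Myh10, Actn1 and Myl12b was not tested.

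**Figure D5:**
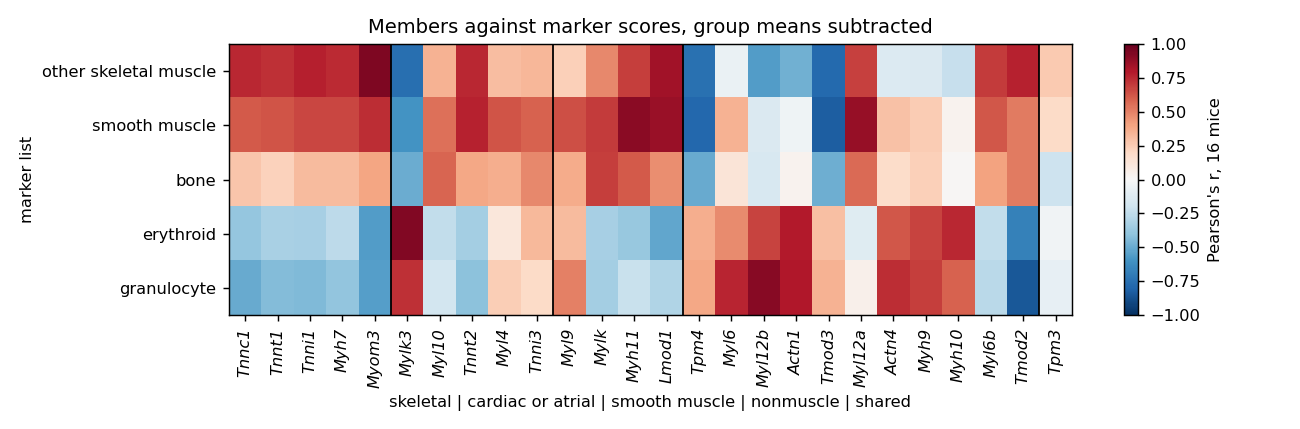
Pearson's r over 16 mice, group means subtracted, of each of the 26 kept genes (columns, by list) with the score of 5 marker lists (rows), from blue (-1) to red (1). The skeletal genes are red with the skeletal markers, red also with the smooth muscle markers (0.61 to 0.74) and blue with the granulocyte markers (-0.55 to -0.39). Mylk3 is the deepest red in the row of erythroid markers (0.92), and Tpm4 and Tmod3 are blue with the muscle markers.

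Since marrow scores moved with several members, the comparison was also fitted with an erythroid score of 7 genes and a granulocyte score of 6 genes as covariates, chosen after the data had been seen. That fit called 8.8% of all features at the adjusted threshold, and it called 2 of the 26 members. The share of members called was no higher than that of all features, so the count does not set the members apart. Tpm4 was lower in HLU by 0.40 on the log2 scale (SE 0.08, limma adjusted p = 0.0365), and Myl4 higher by 0.68 (SE 0.22, limma adjusted p = 0.0903). Tmod3, with a log2 difference of -0.21 (SE 0.06, limma adjusted p = 0.0683), fell short of 1.2-fold in the same fit. The slow fibre genes had no call in it, with log2 differences of -0.58 for Tnnc1 (SE 0.84), -0.72 for Tnni1 (SE 0.96) and 0.16 for Myh7 (SE 1.08). Of the 7 erythroid genes, Hbb-b1 and Hbb-b2 were lower in HLU at the unadjusted threshold and 0 passed the adjusted one, and their median log2 difference was -0.61. In this fit the difference of Myh10 was -0.09 (SE 0.09) and that of Mylk3 -0.21 (SE 0.11).

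Mss51, a muscle gene linked to mitochondrial metabolism and outside the rule, is set beside the slow fibre genes because it separated the groups further than any member. It was at 13 to 20 RPKM in control mice (median 15) and 15.6 to 54.6 RPKM in HLU mice (median 39.9). Of the HLU mice, 7 lay above every control and HLU 2 lay among the controls. The log2 difference was 1.25 (SE 0.22, limma adjusted p = 0.256, exact permutation p = 0.000622). With the marrow covariates it was 1.24 and passed the adjusted threshold (limma adjusted p = 0.0179), and without the 2 smallest libraries it was 1.13 (limma adjusted p = 0.765). Mss51 varied with Tnnc1 within groups, with an r of 0.62 over the 16 mice and a rho of 0.69, an r of 0.46 without the 2 mice farthest from the median, and an r of 0.43 in control and 0.72 in HLU mice. Its r with the skeletal muscle score was 0.75. HLU 6 and HLU 7 were highest in Tnnc1 and had 54.6 and 52.1 RPKM of Mss51, and Controls 5 and 3, next to Control 6 in Tnnc1, had the highest control values, 20 and 17.7 RPKM. HLU 5 and Control 8, lower in Tnnc1, were close to these with 53.9 and 17.6 RPKM. Control 6, with 109 RPKM of Tnnc1, had 15.2 RPKM of Mss51. HLU 8 had 3.63 RPKM of Tnnc1 and 42.1 RPKM of Mss51, and HLU 1 had 6.82 and 32.0 RPKM. HLU 2, with 3.15 RPKM of Tnnc1, had 15.6 RPKM of Mss51. The ratio of Mss51 to Tnnc1 was 0.139 to 3.97 in control and 0.421 to 11.6 in HLU mice.

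Related genes from lists outside the rule had 0 adjusted calls, as had all 16973 features, so that count does not set them apart. At the unadjusted threshold 1.11% of all features were higher in HLU and 4.76% lower. Of the 8 genes for cytoplasmic actin and its regulators, all kept, 0 passed at the adjusted or the unadjusted threshold, and their median log2 difference was -0.24. Of the smooth muscle and pericyte genes, 8 of 9 had a row, 5 were kept and 0 passed at either threshold, with a median of 0.10. Of the 5 tendon and periosteum genes 0 passed, with a median of 0.31. Among the 5 kept skeletal muscle genes outside the rule, Mss51 was higher at the unadjusted threshold and the other 4 were not.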

How the data were processed

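RNA of cortical bone from 16 mice, 8 control and 8 HLU as the sample titles name them, was analysed. The authors prepared TruSeq libraries, ran them on a HiSeq, mapped reads to mm9 by TopHat2 per the submitters' processing notes, compared groups with DESeq2 and deposited RPKM values per gene, which correct for gene length and library size and for no other difference between libraries. The annotation and the counting tool are not given in the sources used here. Each mouse has 36829 features; 3887 share the symbol Rnf135 and were not used as that gene.

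HLU was compared with control by limma 3.58.1 in R 4.3.3 on log2(RPKM + 0.1), a scale that understates the change of low genes. Features averaging 0.5 RPKM or more were kept (16973), variances were moderated along a trend with abundance, and p-values were adjusted by Benjamini-Hochberg over all kept features. A call needed 1.2-fold and an adjusted p under 0.1, or an unadjusted p under 0.05. For single genes the two-sided exact permutation test covered all 12870 ways to divide the mice into 8 and 8. The study used a test on read counts, which does not apply to RPKM. Whole reads were recovered from the RPKM steps for 100% of kept features (within 0.002 reads) and entered limma-voom as an alternative, and 16219 of 16219 simulated features were recovered. On simulated log2 values for 16973 features, 119 of 200 genes changed 2-fold were recovered, with 0 of the wrong sign and 16 false calls. Read floors cover counting error only, since reads are not independent molecules.

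The members and gene lists were chosen with earlier results of these data known. Values are given in full for the 4 most abundant members of each list, the 3 members with the lowest unadjusted p in each direction, Myh7 and Mss51. A relation to Acta1 had been planned, but the symbol has no row, and Tnnc1 was used instead after the data were seen. Positions and exon overlaps are from GENCODE M21 on GRCm38 and promoters from RefSeq on GRCm38.p6, neither of which is the build of the files. The labels do not say that the replicate numbers pair the mice, and the comparison did not pair them. A withheld item is not reported here and entered no marker list, score or covariate. There were 9 alternatives set in advance and 2 added after the data were seen. Scores, correlations and figures used Python 3.11.15 with numpy 2.4.6, scipy 1.17.1, pandas 2.3.3 and matplotlib 3.10.9.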

Additional observations from a re-analysis of the deposited data

Results flagged for a closer look

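A sample far from the other 7 of its group was sought for the 26 kept members and Mss51 in each group (54 groups), and 4 were found, by Dixon's 95% criterion on the gap to the nearest other mouse. Chance alone flags about 1 in 20 groups. Control 1 had the lowest value for 2 of them, Tnnt2 at 0 RPKM (gap 0.703 of the range on the log2 scale) and Myh7 at 0.148 RPKM (0.54). It was also among the 3 lowest mice for Tnnc1, Tnnt1 and Tnni1. Myl9 in HLU 4 was at 10.8 RPKM (0.552), a mouse that also had the lowest Myl6 and Myl4. Mss51 in HLU 2 was at 15.6 RPKM (0.528), in the mouse with the lowest Tnnc1.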

How the results depend on the processing

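There were 11 alternatives, and 13 of the 19 genes given in full kept their direction under every one that was run for them. Lmod1, Myl4 and Tnnt2 had 10, since each averages under 2 RPKM and was left out at that minimum. With the erythroid and granulocyte scores as covariates, Mss51 passed the adjusted threshold, as did 2 members and 1493 of 16973 features in all. At the unadjusted threshold 4 members were higher (Lmod1, Myl10, Myl12a and Myl4), beside 1299 of all 16973 features. Only 1 member was lower (Tpm4), beside 2030 of all features, and the nonmuscle median became 0.152. The log2 difference then reversed for Actn1 (0.0769), Myh7 (0.162), Myl12b (0.152), Myl6 (0.200) and Myl9 (0.516). Median-of-ratios rescaling made 2 members higher, beside 381 of all features, and reversed Actn1 (0.0214), Myl12b (0.0566) and Myl9 (0.0196). Quantile normalization made 2 higher, beside 460 of all features, and reversed Actn1 (0.0696), Myl12b (0.0996), Myl6 (0.0463) and Myl9 (0.0719). In both scalings the members were Myl10 and Myl4. Without the 2 smallest libraries 0 members were higher, beside 108 of all features, and Myl12b (0.0557) and Mylk (-0.0213) reversed. With limma-voom on the recovered reads 1 member, Myh10, was lower, beside 915 of all features. Without the filter on low values, and without the variance trend, 1 feature passed the adjusted threshold in all. The causes were not tested.

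The replicate numbers are shared by the groups, and the labels do not say that they pair the mice. Deviations of same-numbered mice correlated at -0.166 to 0.51, 3 of 8 over 0.1, and 1 of 8 correlated best with its own number. With the replicate number as a block 1 member (Myh10) was lower at the unadjusted threshold in place of 0, beside 840 of all features. At the adjusted threshold 0 members passed. Unadjusted calls over all features were 188 higher and 808 lower in the comparison as reported, 381 and 395 after median-of-ratios rescaling, 460 and 364 after quantile normalization, and 1299 and 2030 with the covariates. Low counts limit Myl10, Tnnt2, Tnni3 and Myl6b, with fewer than 20 reads in at least 1 mouse.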

Other observations

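The slow fibre genes and the general muscle gene Klhl41 did not fall together in every mouse, a pattern noticed after the values had been seen. Klhl41 was at 33.4 RPKM in Control 1 and 28.5 RPKM in HLU 2, the lowest of the 16 mice, where Tnnc1 was at 3.34 and 3.15 RPKM. In HLU 1 and HLU 8 Tnnc1 was also low, at 6.82 and 3.63 RPKM, but Klhl41 was at 103 and 97.1 RPKM, near the median of 97.9 over the 16 mice. The ratio of Tnnc1 to Klhl41 was 0.066 in HLU 1 and 0.0374 in HLU 8, below the lowest control ratio of 0.0998. Over each group it was 0.0998 to 1.10 in control mice (median 0.543) and 0.0374 to 0.701 in HLU mice (median 0.297), and the groups overlapped. Myom3 followed Klhl41 more than Tnnc1 in these mice, at 4.65 RPKM in HLU 1 and 2.14 RPKM in HLU 8, where its ratio to Tnnc1 was 0.681 and 0.59, above the 0.0521 to 0.297 of the other 14 mice. These ratios were not tested.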
